A study of Mus musculus with 4 samples.

Results

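The 8 genes described here build or mark the retinal pericyte: Pdgfb, Pdgfrb, Cspg4, Notch3, Rgs5, Kcnj8, Abcc9 and Ndufa4l2. They were taken by symbol from the 55357 genes of the deposited matrices, and all 8 were present. The data were 4 single-cell RNA libraries of mouse retina, 2 labelled Ctrl and 2 labelled Diabetic (Ctrl 1 and 2, Diabetic 1 and 2 below). Live cells had been enriched with microbeads for CD31, the endothelial surface protein PECAM1, before 10x Chromium 3′ library preparation, so the number of mural cells per library depends on that enrichment. The diabetes model, its duration, and the strain, sex, age and number of mice are not given in the sources used here. No label states that replicate libraries derive from different mice. The p-values therefore measure the spread between these libraries, which may be technical. The study's title concerns specialized endothelial cells and the barrier of retinal vessels in diabetes, and the main comparison here is Diabetic against Ctrl for the genes that tie pericytes to endothelial cells.

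Pericytes sit on the capillary wall inside the endothelial basement membrane, and the retina is known for its dense pericyte cover. Endothelial cells secrete PDGF-BB, the product of Pdgfb, which holds to heparan sulfate near the vessel and acts on the receptor tyrosine kinase PDGFRβ of mural cells. Loss of pericytes is a classic lesion of diabetic retinopathy. Once recruited, mural cells keep their state partly through NOTCH3, and set capillary tone partly through ATP-sensitive potassium channels built of the pore Kir6.1 (Kcnj8) and the sulfonylurea receptor SUR2 (Abcc9).

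Barcodes were sorted into classes by marker lists that hold none of the 8 genes, and unique molecular identifiers (UMIs, counted transcripts) were summed per class and library. Pericytes numbered 53, 33, 65 and 42 barcodes in Ctrl 1, Ctrl 2, Diabetic 1 and Diabetic 2, with 80837 to 101966 UMIs per library. Smooth muscle cells, the mural cells of larger vessels, numbered 21, 10, 15 and 13. Endothelial barcodes with at most 0.05% of UMIs from the mural marker list numbered 512, 232, 1085 and 552. Their sums still held 303, 236, 638 and 498 UMIs of that list. A further 215, 85, 474 and 222 barcodes passed both the endothelial and the mural gate; they may hold attached cells, doublets or free RNA, which cannot be told apart here, and are called endothelial-pericyte barcodes. Rods, which should lack all 8 genes, gave a background level, whose source (free RNA or doublets) was not tested. Levels are given as CPM, the UMIs of a gene scaled to the total UMIs of its class in that library.

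The labelled CD31+ cell type held for part of the barcodes only: of the 5868, 2438, 7891 and 3519 barcodes that passed the quality filter, more were rods than endothelial cells in every library. In the pericyte class all 17 mural markers, which set its gate, were detected. Of 9 smooth muscle markers 6 were detected (186 UMIs), with Cnn1, Actg2 and Pln at 0. Cnn1 and Actg2 were also at 0 in endothelial cells. Of 6 fibroblast markers 3 were detected (46 UMIs), with Lum, Col1a1 and Pdgfra at 0. Of 7 microglial and macrophage markers 3 were detected (5 UMIs), with C1qa, C1qb, Csf1r and Cx3cr1 at 0. Rod markers made up 0.385 to 0.653% of pericyte UMIs and endothelial markers 0.119 to 0.166%. Median mitochondrial shares were lower in both Diabetic libraries than in both Ctrl libraries in endothelial cells, at 2.96 and 3.74% against 5.43 and 5.85%; in pericytes they were 4.12 and 4.90% against 4.61 and 6.83%. The part of this difference in the results below was not tested.

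The loci are on GRCm38 (mm10), from the GENCODE M21 annotation, with the whole protein-coding gene given. Pdgfb lies at chr15:79995874-80014977 on the minus strand, Cspg4 at chr9:56865033-56899870 on the plus strand, Notch3 at chr17:32120820-32166852 on the minus strand, Rgs5 at chr1:169655501-169695813 on the plus strand and Ndufa4l2 at chr10:127514967-127517154 on the plus strand. The position of Pdgfrb is not reported here. Kcnj8 (chr6:142564837-142571614) and Abcc9 (chr6:142587862-142702315) are neighbours on the minus strand, with 16247 bases between them. An antisense gene lies inside Abcc9, and the strand setting of the counting is not given in the sources used here.

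Because these neighbours encode the 2 parts of 1 channel, and Abcc9 was the gene most like Kcnj8 over the classes, the sequence before each start is shown. The RefSeq table (GRCm38.p6) held promoters of 5 of the 8 genes. Each line below gives bases 250 to 51 before the RefSeq start on the minus strand, at chr6:142571665-142571864 for Kcnj8 and chr6:142702325-142702524 for Abcc9. The RefSeq start of Abcc9 lies inside the GENCODE gene given above, so its window is nearer to the GENCODE start. Capitals mark matches of CANNTG (the E-box core) or TGGGAA (the core bound by RBPJ, the Notch effector) on either strand.
Kcnj8: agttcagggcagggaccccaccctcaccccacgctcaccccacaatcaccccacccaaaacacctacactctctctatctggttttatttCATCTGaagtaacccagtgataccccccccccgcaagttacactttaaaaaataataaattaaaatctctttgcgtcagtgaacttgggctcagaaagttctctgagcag
Abcc9: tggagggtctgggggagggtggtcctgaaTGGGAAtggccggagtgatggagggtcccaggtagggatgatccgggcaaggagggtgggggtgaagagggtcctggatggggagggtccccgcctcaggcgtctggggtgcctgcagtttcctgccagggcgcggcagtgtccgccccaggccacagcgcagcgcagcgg
The Kcnj8 window held 1 match of CANNTG and none of TGGGAA, and the Abcc9 window held 1 match of TGGGAA and none of CANNTG. The same window holds CANNTG in 59.0% and TGGGAA in 17.9% of 32851 RefSeq promoters. On either strand, neither window held ACGTG, the hypoxia response core (in 12.9% of promoters), the forkhead site TGTTTAC (in 2.58%) or a CArG box, the serum response factor site (in 1.16%). The Kcnj8 window is 47.5% GC and the Abcc9 window 69.5% GC, so the neighbours share none of these matches and differ in base composition.

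The ligand and its receptor lay in opposite classes. Pdgfb stood at 366 and 447 CPM in endothelial cells of Ctrl 1 and 2 and at 320 and 314 CPM in Diabetic 1 and 2. In pericytes it had 4, 0, 2 and 1 UMIs, and in rods 1.12 to 4.91 CPM. The endothelial mean of 362 ± 61.5 CPM (SD, n = 4 libraries) was 20.4 times that of pericytes, whose few UMIs stood beside 0.119 to 0.166% endothelial-marker UMIs in the same barcodes. Pdgfrb, the receptor, was at 2207 and 2054 CPM in Ctrl pericytes and 1872 and 2047 CPM in Diabetic pericytes, and at 18.3 to 21.5 CPM in endothelial cells, 0.961% of the pericyte mean.

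**Figure D1:**
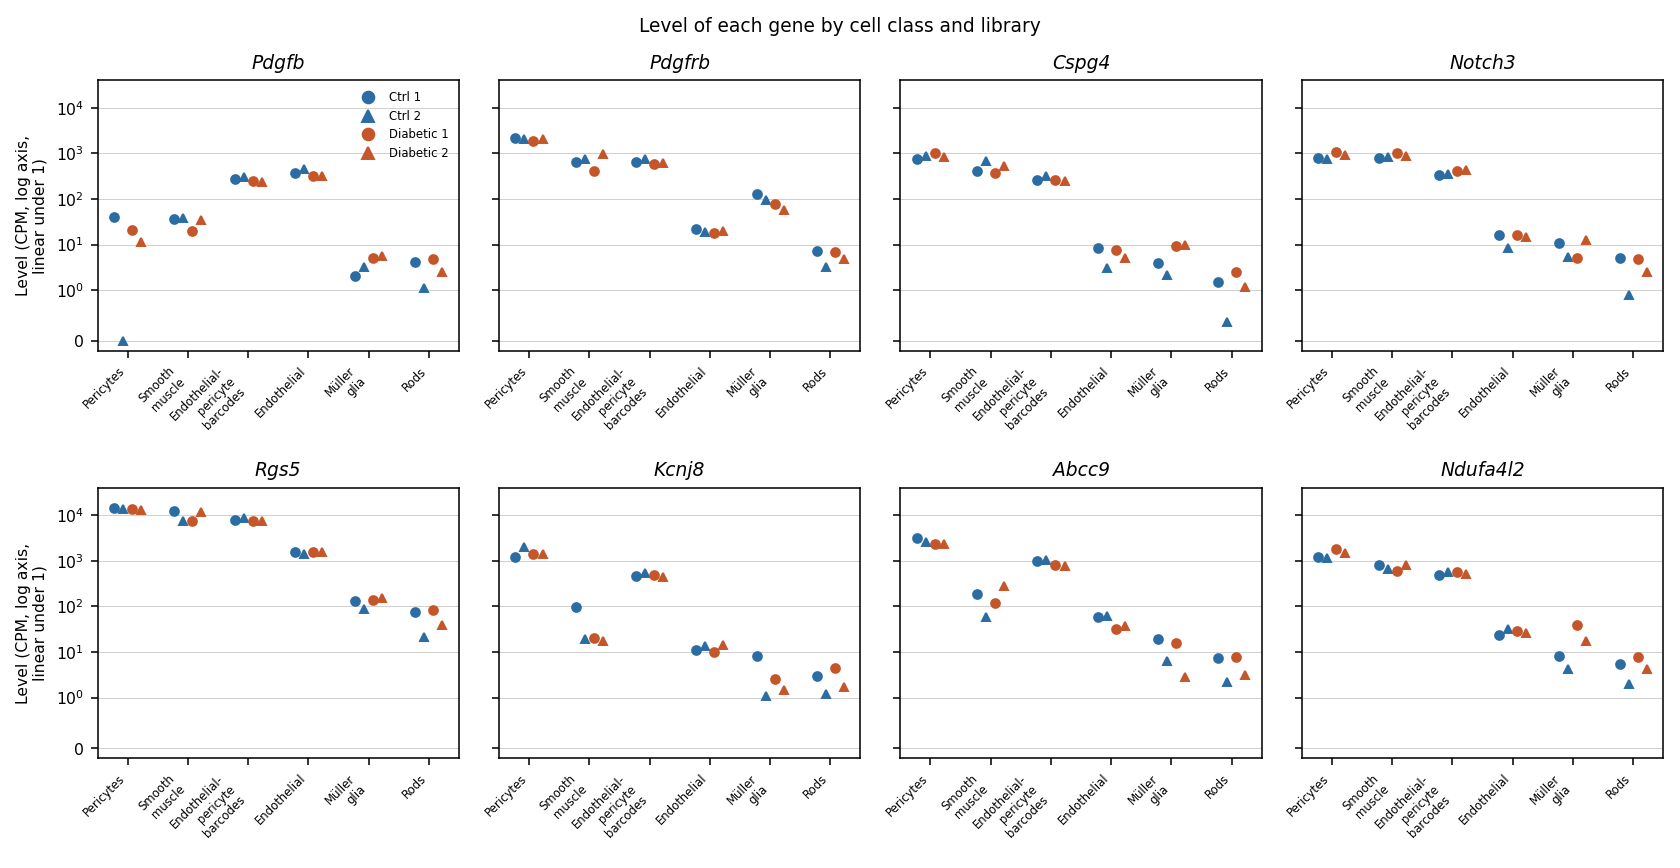
Level in CPM (vertical, logarithmic above 1 and linear below) of the 8 genes in 6 classes (horizontal), with 1 point per library, blue for Ctrl and orange for Diabetic, circles for replicate 1 and triangles for replicate 2. Pdgfb peaks in endothelial barcodes, the other 7 genes in mural barcodes, and Kcnj8 and Abcc9 drop from pericytes to smooth muscle.

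The remaining mural genes were also highest in pericytes or shared with smooth muscle. Cspg4, which encodes the NG2 proteoglycan, was at 755, 866, 992 and 834 CPM in pericytes and at 3.06 to 8.50 CPM in endothelial cells. Notch3 was at 794, 767, 1074 and 901 CPM in pericytes and 8.42 to 16.4 CPM in endothelial cells. Ndufa4l2, a paralogue of the respiratory chain subunit Ndufa4 known to be induced by hypoxia, was at 1196, 1126, 1769 and 1446 CPM in pericytes and 23.5 to 31.4 CPM in endothelial cells. Of Cspg4, Notch3, Kcnj8, Abcc9, Ndufa4l2 and Pdgfrb, the endothelial mean was 0.704 to 1.97% of the pericyte mean. Rods held all 8 genes at lower levels than endothelial cells did.

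Rgs5 departed from this pattern. It encodes a regulator of G-protein signalling that shortens responses to vasoconstrictors, and it stood at 14603, 13385, 13356 and 13013 CPM in pericytes. In endothelial cells it was still at 1584, 1420, 1560 and 1545 CPM, 11.2% of the pericyte mean. Set against mural-list UMIs in the same sums, Rgs5 had 140 to 174 UMIs per 100 in pericytes and 786 to 1046 per 100 in endothelial cells. For Ndufa4l2 the same ratios were 12.4 to 18.6 and 15.5 to 18.5. The endothelial gate caps the mural list, so these ratios are read against those of the other mural genes, of which Ndufa4l2 is 1 example. With every barcode thinned to 1000 UMIs, 51.2 to 55.4% of endothelial barcodes of the 4 libraries had an Rgs5 UMI, against 3.61 to 7.88% of rods and 6.67 to 10.7% of Müller glia. Unthinned shares were 65.1 to 73.0% in endothelial cells and 21.5 to 32.7% in rods.

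The share of single pericytes with a UMI of each gene was also taken. After thinning to 1000 UMIs, which left out 7, 10, 18 and 6 shallower pericytes, 100% of the pericytes of each library had an Rgs5 UMI. The libraries ranged from 75.0 to 87.0% for Pdgfrb, 74.5 to 89.1% for Abcc9, 58.3 to 73.9% for Kcnj8, 56.5 to 72.3% for Ndufa4l2, 47.8 to 69.4% for Notch3 and 47.8 to 59.6% for Cspg4. In rods the share of barcodes with a UMI was at most 0.909% for each of these genes other than Rgs5, taken singly. A pericyte had UMIs of a median of 5.0 to 6.0 of the 7 mural genes, and none had 0 of them, since all held Rgs5. Whether the genes were found together beyond their single shares was not tested.

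Kcnj8 and Abcc9, which must combine to form the channel, were both found in 67.4% of thinned pericytes of Ctrl 1 (95% exact binomial interval 52.0 to 80.5%, 46 barcodes) and 73.9% of Ctrl 2 (51.6 to 89.8%, 23). In Diabetic 1 and 2 the shares were 51.1% (36.1 to 65.9%, 47) and 44.4% (27.9 to 61.9%, 36). The groups did not overlap, but the interval of each library overlaps those of the other group, and intervals cover counting error only. In their summed levels, 35.8% of all genes tested in pericytes had groups apart. No such share was taken for pairs of genes in single barcodes. No thinned smooth muscle barcode held both Kcnj8 and Abcc9, which allows shares of up to 16.7 to 33.3% at 9 to 18 barcodes. Endothelial-pericyte barcodes held both in 20.1 to 25.0%, without separation of the groups.

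**Figure D2:**
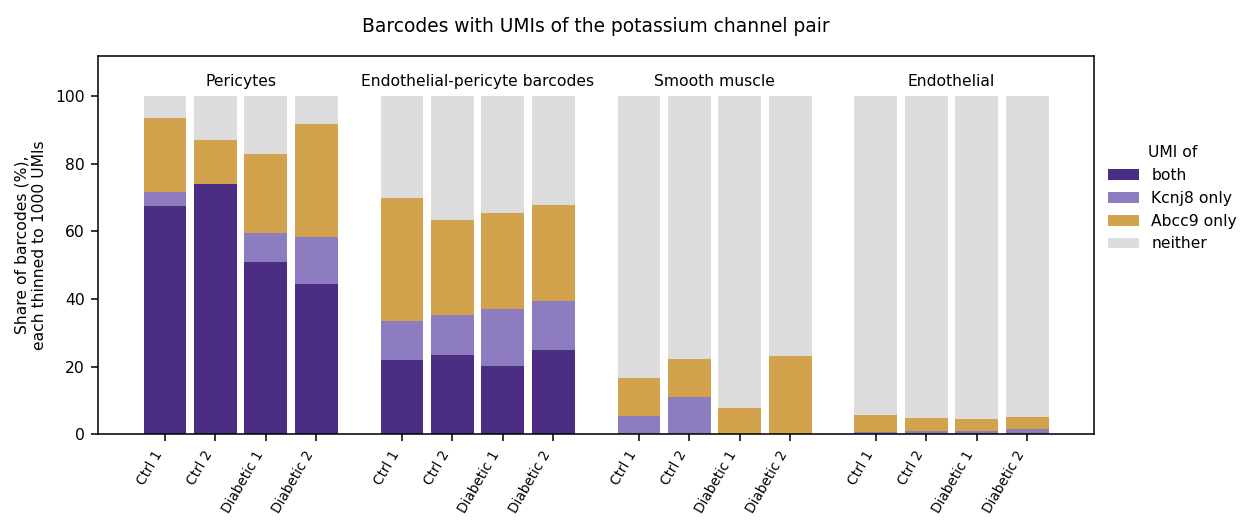
Share of barcodes (vertical, percent, each barcode thinned to 1000 UMIs) with UMIs of both Kcnj8 and Abcc9, of 1 of them or of neither, for each library of 4 classes (horizontal). Both genes are found in 44.4 to 73.9% of pericytes and in none of the smooth muscle barcodes.

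Over the 28 sums of 7 classes and 4 libraries, the genes most alike to each of the 8 were ranked by Pearson correlation of log2(CPM + 1) among 11095 genes. The sums share libraries, and the order of classes sets most of the correlation. For Kcnj8 the first was Abcc9 (r = 0.960), ahead of Atp13a5 and Lama2. For Abcc9, Septin11 (0.961) came first, then Kcnj8 and Lama2. Cspg4 and Notch3 were each among the 3 most alike to the other (0.989), with Daam2 on both lists, Ndufa4l2 on that of Cspg4 and Higd1b on that of Notch3. Ndufa4l2 was most like Cspg4 (0.983), Casq2 and Gja4. Pdgfrb was most like Cped1 (0.977), Ctdspl and P2ry14, and Rgs5 was most like Mgp (0.976), Pear1 and Gja4. Pdgfb was most like the endothelial genes Itga6 (0.962), Klf2 and Adam15. Higd1b, P2ry14 and Atp13a5 are on the mural gate list, so their place here was open to the gate.

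The next comparison set pericytes against smooth muscle within each library. The channel pair marked pericytes most: Kcnj8 was at 1206, 2004, 1370 and 1413 CPM in pericytes of Ctrl 1, Ctrl 2, Diabetic 1 and Diabetic 2. In smooth muscle it was at 97.0, 19.0, 20.1 and 17.2 CPM, from 8, 1, 1 and 1 UMIs. Abcc9 was at 3119, 2511, 2332 and 2325 CPM in pericytes and at 182, 57.1, 121 and 275 CPM in smooth muscle. The log2 fold changes were 4.95 ± 0.33 (SE) for Kcnj8 and 3.98 ± 0.26 for Abcc9, with adjusted p = 1.18e-15 and 6.60e-16 (edgeR quasi-likelihood test with library as a block, 8 sums, Benjamini-Hochberg over 2140 genes). Both genes were higher in pericytes of 4 of 4 libraries, with no overlap between classes. Without Ctrl 1, which held 8 of the smooth muscle UMIs, the value for Kcnj8 was 6.24, so its size rests on few UMIs.

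Pdgfrb was also higher in pericytes of every library. In smooth muscle it was at 643, 743, 403 and 979 CPM, and the log2 fold change of pericytes over smooth muscle was 1.56 ± 0.20 (edgeR adjusted p = 6.85e-08). Ndufa4l2, at 788, 666, 604 and 824 CPM in smooth muscle, was higher in pericytes by 0.88 ± 0.20 on the log2 scale (adjusted p = 0.000638), and Cspg4 by 0.76 ± 0.21 (adjusted p = 0.00538), each in 4 of 4 libraries. Neither call held under the looser gate (adjusted p = 0.0578 and 0.0573), and that of Cspg4 was also lost with DESeq2 (adjusted p = 0.115).

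Notch3 and Rgs5 did not pass the test between the mural classes. Notch3 was at 788, 838, 1007 and 876 CPM in smooth muscle, a log2 difference of -0.03 ± 0.19 (edgeR adjusted p = 0.947), and the classes overlapped. Rgs5 ranged from 7313 to 12257 CPM in smooth muscle and was below the pericytes in 4 of 4 libraries, a log2 difference of 0.50 ± 0.22 (adjusted p = 0.0976). Without Ctrl 2 it passed at 0.44 (adjusted p = 0.0442). In all, 5 of the 7 genes tested were higher in pericytes and none was lower, where 11.1% of all genes tested were higher and 13.5% lower. Pdgfb had too few UMIs to be tested.

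**Figure D3:**
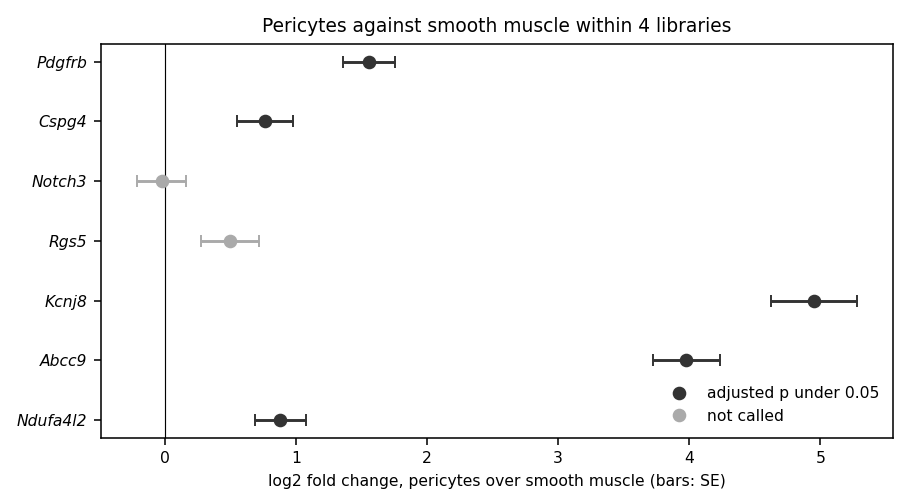
Log2 fold change of pericytes over smooth muscle (horizontal) with its SE for the 7 genes tested (vertical), from 8 sums of 4 libraries, dark where the adjusted p was under 0.05. Kcnj8 at 4.95 and Abcc9 at 3.98 stand apart, and Notch3 lies at -0.03.

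Genes around these 8 also differed between the mural classes, where 24.5% of all genes were called. Some of the counts below are near that share, and none of them is read as particular to a list. Of the listed potassium channel and tone genes, 3 of 11 tested were higher in pericytes and 3 lower. The G-protein regulator Rgs4 (log2 fold change 0.70 ± 0.20, edgeR adjusted p = 0.00869) was among the higher, and the phosphodiesterases Pde3a (-2.41 ± 0.23) and Pde5a (-1.20 ± 0.22) and the channel subunit Kcnmb1 (-1.30 ± 0.45) were lower. The pancreatic-type channel subunits Kcnj11 and Abcc8 had no UMI in pericytes or smooth muscle of any library. Pdgfa, the sister ligand of Pdgfb, was higher in smooth muscle (630, 514, 342 and 172 CPM against 98.1, 111, 143 and 89.0 CPM in pericytes; -1.92 ± 0.29, adjusted p = 1.30e-06), and Pdgfd had no UMI in pericytes. Of 5 PDGF-list genes tested, Pdgfa was the 1 lower and Pik3r1, a subunit of phosphoinositide 3-kinase, the 1 higher (0.76 ± 0.29). Notch2 had 1 to 5 UMIs in pericytes and Hey1 at most 1. Of the Notch list, 2 of 5 tested were higher in pericytes, Notch1 (0.78 ± 0.23) and the mural Notch target Heyl (0.89 ± 0.31), which is a gate marker, and none was lower.

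Other pericyte identity genes also differed between the mural classes. Vtn, which encodes vitronectin of the pericyte matrix, was at 9102 to 11814 CPM in pericytes and 476 to 1442 CPM in smooth muscle (3.63 ± 0.25, edgeR adjusted p = 4.41e-15). Anpep, the aminopeptidase CD13, had 10, 4, 9 and 14 UMIs in pericytes and 0 in smooth muscle of all 4 libraries. Of that list, 4 of 15 tested were higher in pericytes, among them Ifitm1 (3.45 ± 0.34) and Sod3 (2.48 ± 0.44), and 3 were lower, among them Pdlim3 (-2.44 ± 0.32). Of the contact list 4 of 10 were higher, among them N-cadherin (Cdh2, 2.51 ± 0.43), the chemokine Cxcl12 (1.68 ± 0.28) and the basement membrane collagen Col4a1 (0.96 ± 0.22), and Ccn2 was lower (-2.36 ± 0.29). Angpt1, the mural ligand of the endothelial receptor Tek, had 1 to 5 UMIs in pericytes and 5 to 9 in smooth muscle. Of the respiratory chain list 2 of 9 were higher, Cox4i2 (1.36 ± 0.24) and Higd1b (0.58 ± 0.20), both gate markers, and the hypoxia-inducible factor Epas1 was lower (-0.77 ± 0.18). Ndufa4 differed by -0.61 ± 0.27 (adjusted p = 0.0924).

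The Diabetic against Ctrl comparison in pericytes called none of the 7 genes tested. No gene of 2057 tested was called (0%), by edgeR or by DESeq2, while 125 had an unadjusted p under 0.05 (6.08%), none of them among the 7. With 1 library left out, edgeR called 1 to 6 genes. The lowest p-values belonged to Ndufa4l2 and Abcc9. Ndufa4l2 was at 1196 and 1126 CPM in Ctrl against 1769 and 1446 CPM in Diabetic, a log2 fold change of 0.39 ± 0.22 (edgeR adjusted p = 0.831). Abcc9 was at 3119 and 2511 CPM against 2332 and 2325 CPM (-0.35 ± 0.21, adjusted p = 0.831), and without Ctrl 1 it differed by -0.13. In both genes the 2 groups did not overlap, as in 5 of the 7, where 35.8% of all genes had groups apart. The SEs of the 7 genes were 0.21 to 0.24, with 33 to 65 pericytes per library.

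The receptor and the other identity genes lay closer to no difference. Pdgfrb differed by -0.20 ± 0.21 on the log2 scale (edgeR adjusted p = 0.948), Notch3 by 0.26 ± 0.24 (0.916), Rgs5 by -0.16 ± 0.22 (0.972), Cspg4 by 0.10 ± 0.24 (0.981) and Kcnj8 by -0.26 ± 0.23 (0.916). Kcnj8 in Ctrl was spread from 1206 to 2004 CPM, with both Diabetic libraries between. The median of the 7 log2 fold changes was -0.16, and that of all genes tested -0.01. None of the 4 to 14 tested genes of any of the 6 surrounding lists was called; Vtn differed by -0.25 ± 0.22, Cdh2 by 0.41 ± 0.33, Heyl by -0.40 ± 0.34, Jag1 by 0.17 ± 0.35 Ndufa4 by 0.73 ± 0.36 (adjusted p = 0.770), Pdgfa by 0.09 ± 0.49 and Cox4i2 by 0.05 ± 0.25. Smooth muscle had under 20 barcodes in 3 libraries and was not tested. Pdgfrb there, at 643 and 743 CPM in Ctrl against 403 and 979 CPM in Diabetic, shows the spread.

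**Figure D4:**
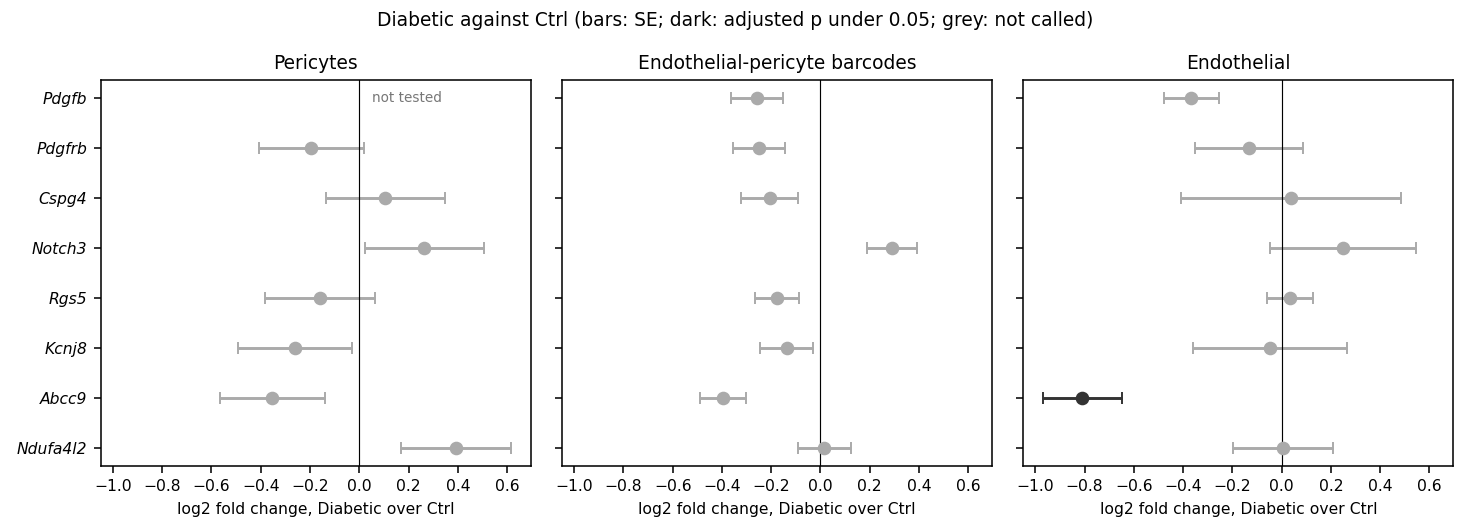
Log2 fold change of Diabetic over Ctrl (horizontal) with its SE for the 8 genes (vertical) in pericytes, endothelial-pericyte barcodes and endothelial cells, 2 libraries a group, dark where the adjusted p was under 0.05. Abcc9 in endothelial cells, at -0.81, is the single dark point, and Abcc9 lies below 0 in all 3 classes.

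In endothelial cells 1 of the 8 genes was called: Abcc9 fell in Diabetic, where of 11452 genes 1.42% were called lower, 2.07% higher and 3.49% either way. It was at 58.5 and 62.8 CPM in Ctrl and at 32.1 and 37.9 CPM in Diabetic, from 117, 82, 133 and 114 UMIs, so the groups did not overlap. The log2 fold change was -0.81 ± 0.16 (edgeR adjusted p = 0.0122). DESeq2 did not call it (-0.81, adjusted p = 0.10), nor did edgeR without Diabetic 1 (-0.66, adjusted p = 0.103). With each barcode thinned to 1000 UMIs the difference was -0.30 (adjusted p = 0.759), and the levels of 53.1, 42.7, 39.1 and 43.9 CPM, from 9 to 38 UMIs, overlapped. Over all alternatives the adjusted p ranged from 6.11e-06 to 0.759.

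This endothelial Abcc9 was 1.86% of the pericyte mean, and its level relative to mural RNA was given beside it. Per 100 mural-list UMIs it stood at 38.6, 34.7, 20.8 and 22.9 in endothelial cells and at 37.2, 27.7, 24.5 and 25.7 in pericytes of the same libraries. The mural list itself made up 0.0151 and 0.0181% of endothelial UMIs in Ctrl and 0.0154 and 0.0165% in Diabetic. Vtn, which is far higher in pericytes, was also lower in Diabetic endothelial cells (190, 185, 127 and 101 CPM; -0.73 ± 0.12, edgeR adjusted p = 0.00318). The part of pericyte RNA in the endothelial Abcc9 difference was not tested. The make-up of the endothelial class as gated also differed, with 5 and 6 venous barcodes in Ctrl and 170 and 93 in Diabetic. The venous list holds Nr2f2, Slc38a5, Vwf, Tmem252, Ephb4, Ackr1 and Lrg1, and its cut is relative to the mean over all endothelial barcodes. Whether the levels of these markers or the number of venous cells differed was not tested. This make-up depended on the gate. With classes taken from clusters, venous barcodes were 49 of 459 and 31 of 184 in Ctrl. In Diabetic they were 86 of 881 and 33 of 391. The cluster with the highest venous-list share, of 699 barcodes, was left out of those classes. Within the gated capillary barcodes alone Abcc9 was at 68.0 and 75.6 CPM in Ctrl and 36.3 and 36.0 CPM in Diabetic. These came from 32 to 45 UMIs, and the groups were also apart there. Thinned to 1000 UMIs, with 3 to 13 UMIs left, the capillary groups overlapped: Ctrl 2, at 37.0 CPM, lay below both Diabetic libraries, at 43.8 and 52.3 CPM. In arterial barcodes, with 10 to 13 UMIs, they overlapped. Kcnj8, its partner, was between 9.89 and 14.3 CPM in the 4 libraries (-0.05 ± 0.31, adjusted p = 0.966), with overlapping groups.

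Pdgfb, the ligand, did not pass the test. Its Diabetic levels of 320 and 314 CPM were below the Ctrl levels of 366 and 447 CPM, a log2 fold change of -0.37 ± 0.11 (edgeR adjusted p = 0.106; DESeq2 0.368). The value rests on the Ctrl libraries: it was -0.52 and passed without Ctrl 1 (adjusted p = 0.000297), and -0.21 without Ctrl 2 (0.303). Of the 8 genes, 2 had an unadjusted p under 0.05, against 16.3% of all genes, and 2 had groups apart, against 45.6%. The 5 genes not yet named differed by -0.13 to 0.25 with adjusted p-values from 0.756 to 0.997.

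**Figure D5:**
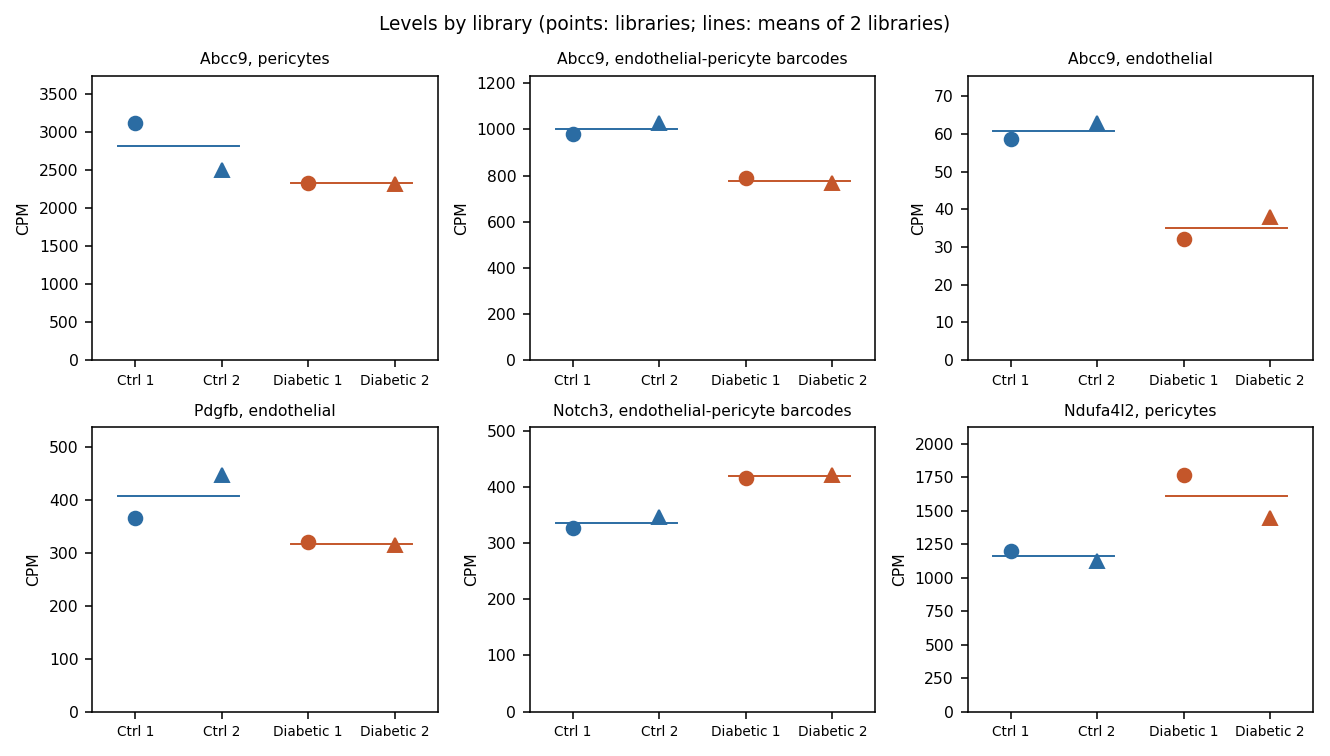
Levels in CPM (vertical, from 0) of Abcc9 in 3 classes, Pdgfb in endothelial cells, Notch3 in endothelial-pericyte barcodes and Ndufa4l2 in pericytes, by library (horizontal), with lines at the mean of 2 libraries. In endothelial cells Abcc9 is at 58.5 and 62.8 CPM in Ctrl and 32.1 and 37.9 CPM in Diabetic, and the groups do not overlap in any panel, which were chosen after the values were seen.

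Genes of the surrounding lists were compared in the same endothelial cells. There 3.49% of all 11452 genes were called, 1.42% lower and 2.07% higher in Diabetic. None of the counts below is read as particular to a list. Of 17 Notch genes tested 2 were called, both lower in Diabetic: Hes1 (-0.62 ± 0.13, edgeR adjusted p = 0.0202) and Hey1 (104, 108, 76.2 and 70.4 CPM; -0.54 ± 0.11, adjusted p = 0.0176), transcription factors that Notch activates. Jag1, the ligand that endothelial cells present to mural Notch3, was at 94.5 and 98.7 CPM in Ctrl and 72.1 and 69.4 CPM in Diabetic (-0.46 ± 0.12, adjusted p = 0.0508). Nrarp, another Notch target, named after its values were seen, differed the other way (0.92 ± 0.27, adjusted p = 0.0898). Hey1 is on the arterial list. With classes taken from clusters, arterial barcodes were 63 of 459 and 24 of 184 in Ctrl and 121 of 881 and 42 of 391 in Diabetic. As gated, arterial barcodes were 81 of 512 and 46 of 232 in Ctrl and 117 of 1085 and 65 of 552 in Diabetic. Within arterial barcodes Hey1 overlapped between the groups (308, 309, 276 and 309 CPM). Within capillary barcodes it was at 51.4 and 40.0 CPM in Ctrl and 37.1 CPM in both Diabetic libraries, from 18 to 45 UMIs. Hes1 was apart within both subtypes, at 416 and 455 against 301 and 324 CPM in arterial and 427 and 619 against 265 and 401 CPM in capillary barcodes. Jag1 overlapped in arterial barcodes (106, 183, 98.0 and 120 CPM) and was apart in capillary barcodes (83.1 and 73.4 against 64.3 and 67.4 CPM). The part of the class make-up in these differences was not tested. The median of the Notch list was -0.20, against 0.00 over all genes. No PDGF-list gene of 16 tested was called; Pdgfa differed by -0.27 ± 0.14 and Pdgfd by -0.10 ± 0.20. No gene was called of 9 potassium channel and tone genes or 12 respiratory chain genes tested, with Ndufa4 at 0.06 ± 0.11 and Cox4i2 at -0.18 ± 0.19. Of the pericyte identity list, Ifitm1 (2.42 ± 0.41) and Mcam (0.98 ± 0.24) were higher and Vtn lower, of 11 tested. Ifitm1 was at 9.0, 2.30, 42.7 and 24.3 CPM, and within capillary barcodes its groups overlapped (10.6, 2.22, 9.06 and 8.99 CPM). Of the contact list the matricellular gene Ccn2 was higher (0.91 ± 0.12, adjusted p = 0.00113), 1 of 17 tested, with Cdh2 at 0.09 ± 0.18. Notch2 differed by 0.18 ± 0.33.

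Barcodes with RNA of both cell types gave the deepest sums, of 1125159 to 3634368 UMIs. Their mural-list share was 38.3% of that of pericytes and their endothelial-list share 76.1% of that of endothelial cells. All but Rgs5 lay near these proportions. Pdgfb was at 73.9% of its endothelial mean. Pdgfrb, Cspg4, Kcnj8, Abcc9, Ndufa4l2 and Notch3 were at 31.4 to 42.8% of their pericyte means. Rgs5 was at 58.2% of its pericyte mean, and the reason was not tested.

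None of the 8 genes was called in these barcodes, where of 11422 genes 1.17% were called, 0.779% higher and 0.394% lower. DESeq2 called none of the 8 either. Abcc9 was at 978 and 1026 CPM in Ctrl and 789 and 766 CPM in Diabetic, a log2 fold change of -0.39 ± 0.09 (edgeR adjusted p = 0.0678). It passed without Ctrl 1 (-0.44, adjusted p = 0.00735), with no filter on low counts (-0.37, 0.0136) and under the looser gate (-0.43, 0.0482), and was -0.18 (0.588) with classes taken from clusters. Per 100 mural-list UMIs it stood at 28.6 in both Ctrl libraries and at 22.9 and 23.0 in Diabetic.

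Notch3 lay the other way, at 327 and 347 CPM in Ctrl and 417 and 422 CPM in Diabetic (0.29 ± 0.10, edgeR adjusted p = 0.262). Per 100 mural-list UMIs it was 9.58 and 9.67 in Ctrl and 12.1 and 12.7 in Diabetic. Pdgfb (274, 304, 253 and 238 CPM; -0.26 ± 0.11, adjusted p = 0.373) and Pdgfrb (657, 751, 582 and 624 CPM; -0.25 ± 0.10, adjusted p = 0.379) were lower in both Diabetic libraries than in both Ctrl libraries. Of the 8 genes, 4 had an unadjusted p under 0.05, against 11.5% of all genes, and 6 had groups apart, against 41.7%. Cspg4, Rgs5, Kcnj8 and Ndufa4l2 differed by -0.21 to 0.01. Of the surrounding genes, Vtn differed by -0.39 ± 0.10 (adjusted p = 0.112), Heyl by -0.29 ± 0.13, Hey1 by -0.32 ± 0.17, Jag1 by -0.10 ± 0.13 and Angpt1 by 0.72 ± 0.38.

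The Diabetic effects of the 3 classes come from the same 4 libraries and are not independent. Set side by side are the log2 fold changes in pericytes, endothelial-pericyte barcodes and endothelial cells, in that order. Abcc9 differed by -0.35, -0.39 and -0.81, and Notch3 by 0.26, 0.29 and 0.25. The endothelial Notch3 value had an SE of 0.29, with overlapping groups from 32, 11, 68 and 43 UMIs. It ranged from -0.057 to 0.85 with 1 library left out. Ndufa4l2 differed by 0.39, 0.01 and 0.01. The difference between the effect in pericytes and that in endothelial cells was tested directly, and none of the 8 genes passed. Of 9662 genes 0.0724% were called, 0.0414% higher and 0.031% lower. By DESeq2 none of the 8 passed either. Pdgfb entered through its endothelial UMIs, with 4, 0, 2 and 1 UMIs in pericytes (SE 1.11), so its result carries no weight. In pericytes alone 2057 genes passed the count filter, so many of the 9662 had few pericyte UMIs. For Abcc9 the difference of effects was 0.52 ± 0.23 (edgeR adjusted p = 0.902), the only 1 of the 8 with an unadjusted p under 0.05, against 4.93% of all genes. For Ndufa4l2 it was 0.47 ± 0.27 (adjusted p = 0.997).

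The last comparison asked where along the vessel the ligand is made. Endothelial barcodes were split by arterial, capillary and venous lists, which placed 1345 of 2381, with 367 near a cut between subtypes. Pdgfb was at 410, 567, 321 and 298 CPM in arterial and at 373, 409, 367 and 371 CPM in capillary barcodes. The log2 difference within libraries was 0.05 ± 0.11 (edgeR adjusted p = 0.913), where of 7493 genes 7.19% were called, 4.46% higher and 2.74% lower. In venous barcodes it was at 482, 402, 266 and 260 CPM, of which the Ctrl libraries held 5 and 6 barcodes only, and arterial against venous gave 0.24 ± 0.20 (adjusted p = 0.658), where of 6901 genes 6.25% were called, 3.22% higher and 3.03% lower. Pdgfa was higher in arterial than in capillary barcodes (0.92 ± 0.20, adjusted p = 0.000473), as were the Notch ligands Jag1 (0.78 ± 0.17) and Dll4 (0.74 ± 0.16), among 6 of 14 Notch genes called higher; Hey1, also among them, is on the arterial list. Of the other pericyte genes tested between arterial and capillary barcodes none was called, by edgeR or DESeq2. Abcc9 differed by -0.64 ± 0.25 (edgeR adjusted p = 0.124) and Rgs5 by -0.01 ± 0.10 (adjusted p = 0.976).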

How the data were processed

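The deposited matrices held raw UMI counts per gene and barcode with no normalization, made with Cell Ranger 7.0.0 on mm10, per the submitters' processing notes, which also name STAR 2.7.10b. Feature and barcode files were used as names only. Per library there were 3091 to 7991 barcodes and 29792902 to 58792636 UMIs, and 5 to 9 barcode sequences were shared between any 2 libraries. The endothelial sums of the libraries of a group differed by more than UMI sampling alone (chi-square per degree of freedom 2.81 and 2.90). Variation between cells also raises this value, so it cannot tell whether the libraries are separate samples. They were counted as separate samples, as labelled.

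The quality filter asked for 500 UMIs and 300 genes or more, with mitochondrial UMIs at 20% or less. Classes were gated on the share of UMIs of marker lists with none of the 8 genes, at least 4 marker UMIs of 3 genes: mural at least 0.3% with endothelial at most 0.3% and smooth muscle at most 0.2% (pericytes); smooth muscle at least 0.4%; endothelial at least 0.75% with mural at most 0.05% (endothelial), or with mural at least 0.2% (endothelial-pericyte). These levels were set after the pooled distributions of the lists, not the 8 genes, had been seen. Doublets stayed in and were left out as an alternative (Scrublet in scanpy 1.11.5). It named 42, 12, 498 and 19 barcodes in Ctrl 1, Ctrl 2, Diabetic 1 and Diabetic 2. The cut was the expected rate in Diabetic 1 and an automatic threshold in the others. This left 53, 33, 64 and 42 pericytes and 215, 85, 449 and 222 endothelial-pericyte barcodes, so these classes changed in Diabetic 1 only. Per-class sums were tested with edgeR 4.0.16 (TMM, filterByExpr, quasi-likelihood, two-sided, Benjamini-Hochberg over all genes tested, called at adjusted p under 0.05) in R 4.3.3, with DESeq2 1.42.0 as an alternative. Classes needed 20 barcodes in every library, or 10 for pericytes against smooth muscle. The Diabetic against Ctrl tests in pericytes, endothelial cells and endothelial-pericyte barcodes were also run on simulated counts with a fixed spread between libraries. The other tests were not, and no result here rests on that run. SDs are over libraries, and edgeR SEs are the log2 fold change over the square root of its F statistic; binomial intervals are exact (Clopper-Pearson), and the limit of a 0 is 3 counts.

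Named were all 8 genes, up to 4 called genes of each of 6 lists by size of change, 14 fixed list genes, and for each of the 8 the 3 most alike genes. The 8 genes and the lists were chosen with earlier results of these data known. Alternatives were the tool, the filter, each library left out, stricter and looser gates (other-class limits times 0.5 and 2), Leiden clusters (leidenalg 0.10.2), 10% mitochondrial UMIs, thinning to 1000 UMIs, doublets left out and the replicate block. The values of 1 listed gene are not reported here.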

Additional observations from a re-analysis of the deposited data

Results flagged for a closer look

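The arterial minus capillary difference of Pdgfb went opposite ways in the groups. Its log2 ratio of CPM was 0.14 and 0.47 in Ctrl 1 and 2 and -0.19 and -0.31 in Diabetic 1 and 2, so the mean in Diabetic minus that in Ctrl was -0.56. In an interaction fit chosen after seeing these values the difference was -0.51 ± 0.20 (edgeR adjusted p = 0.593 over 7493 genes).

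Rgs5 showed the same separation in the other direction. Arterial levels were 1593, 883, 2161 and 2023 CPM and capillary levels 1654, 1593, 1750 and 1595 CPM in Ctrl 1, Ctrl 2, Diabetic 1 and Diabetic 2, and the mean log2 ratio in Diabetic minus that in Ctrl was 0.78. The interaction fit gave 0.78 ± 0.16 (edgeR adjusted p = 0.00256), but DESeq2 gave 0.82 (adjusted p = 1.00), and the value without Ctrl 2 was 0.41 (adjusted p = 0.937), so 1 library decides its size. With classes from clusters it turned to -0.066 (adjusted p = 0.983). Without Ctrl 1 it was 1.24 (0.0556), and without Diabetic 1 or 2 it was 0.82 (0.0887) and 0.76 (0.267). Smooth muscle markers had 6, 12, 22 and 17 UMIs in these arterial sums, and their part was not tested.

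Ndufa4l2 had an arterial over venous log2 ratio below 0 in both Ctrl libraries and above 0 in both Diabetic libraries, with a mean difference of 1.25. It rests on 1 UMI in each Ctrl venous sum and was not tested.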

How the results depend on the processing

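Of the alternatives to single-gene results, 466 kept their side of the threshold, with direction where called, 8 gained a call and 14 lost one. A value that was not called counts as kept whatever its sign. The cause of each change below was not tested, except that thinning lowers the UMIs. The Rgs5 arterial-capillary interaction reversed to -0.066 with classes from clusters, and lost its call under 8 further alternatives (0.41 to 1.24). In endothelial cells Pdgfb was called with the replicate block (-0.36, edgeR adjusted p = 0.000804), as was Abcc9 in endothelial-pericyte barcodes (-0.39, adjusted p = 0.000459), and Rgs5 of pericytes over smooth muscle with no filter (0.58, adjusted p = 0.0332).

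In pericytes the 0 genes called by edgeR became 3 under the looser gate and 1 to 6 with a library left out. In endothelial cells the 400 genes called became 207 with DESeq2, 750 with no filter, 80 with classes from clusters, 118 thinned to 1000 UMIs and 1110 with the replicate block, and 308 to 760 with a library left out. In endothelial-pericyte barcodes the 134 became 64 with DESeq2, 326 with no filter, 257 under the stricter gate, 41 thinned and 462 with the replicate block, and 132 to 382 with a library left out. Of pericytes against smooth muscle the 525 became 245 with DESeq2 and 385 to 438 with a library left out. Thinning moved the mean share of barcodes with a UMI to 30.8% from 65.7% for Pdgfb in endothelial cells. In pericytes it moved that share to 81.4% from 86.4% for Pdgfrb, to 53.1% from 67.3% for Cspg4, to 62.1% from 74.4% for Notch3 and to 65.9% from 76.7% for Ndufa4l2.

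Replicate numbers name the libraries and are not stated to pair them; deviations of libraries with the same number correlated at 0.125 to 0.173 in 3 classes, over 2 pairs. With 1 library left out of a group of 2, the lone library is assumed to vary like those of the other group. Not run, for too few barcodes, were the stricter gate for each comparison that uses the pericyte class and, for pericytes against smooth muscle, the 10% mitochondrial limit and thinning. Clusters were not run for that comparison either (1 cluster held both), nor any alternative of Diabetic against Ctrl in smooth muscle. There were 33 to 65 pericytes and 10 to 21 smooth muscle barcodes a library.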

Other observations

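Pdgfrb was also found outside the mural classes. In Müller glia, the radial glia of the retina, it was at 130, 94.3, 79.2 and 58.5 CPM in Ctrl 1, Ctrl 2, Diabetic 1 and Diabetic 2, from 130, 88, 61 and 41 UMIs, against 3.25 to 7.36 CPM in rods. The mean was 16.4 times that of rods. With barcodes thinned to 1000 UMIs, 3.62 to 9.52% of Müller glia had a Pdgfrb UMI, against 0.353 to 0.707% of rods. The Diabetic levels lay below the Ctrl levels as summed, but with thinned barcodes they overlapped, at 113 and 68.0 CPM in Ctrl and 43.5 and 107 CPM in Diabetic. The difference was not tested.

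Pdgfb was found in the microglia class at 143 and 327 CPM in Ctrl and 49.1 and 63.6 CPM in Diabetic, from 19, 29, 28 and 25 UMIs in 47, 23, 118 and 60 barcodes. Rods were at 1.12 to 4.91 CPM. With thinned barcodes, which left 1, 1, 4 and 5 UMIs, the levels were 30.3 and 55.6 CPM in Ctrl and 39.6 and 90.9 CPM in Diabetic, so the groups overlapped. The difference, and the part of endothelial RNA in these barcodes, was not tested.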
